A study of Homo sapiens with 2 samples.

Results

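The ATP-binding cassette (ABC) transporters were described in RNA sequencing of 786-O, a human renal carcinoma line, and of its SETD2 knockout. The members are the genes whose symbol is ABC, 1 letter from A to G and a number, and 46 of the 23375 genes in the deposited tables met this rule. The symbol alone chose them, and no measured value entered. The line is an established one and derives from a clear cell tumour of the kidney. SETD2, which both the labels and the title name as the altered gene, encodes the enzyme that trimethylates lysine 36 of histone H3. The wild-type group was the 786-O line with unaltered SETD2, and the other was an isogenic 786-O line whose gene had been disrupted with a zinc finger nuclease, an engineered enzyme that cleaves a selected DNA sequence. Both were grown in RPMI1640 medium with serum and received no agent other than medium. There was 1 library of each line, and whether the knockout line was 1 clone is not given in the sources used here.

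ABC transporters bind and split ATP on a pair of nucleotide-binding domains and use that energy to move a substrate across a membrane. Subfamilies A, B, C, D and G hold membrane proteins that carry lipids, sterols, bile salts, drugs, conjugates or peptides. Subfamilies E and F have the nucleotide-binding domains without a membrane part and act on ribosomes and translation. In the kidney, several B, C and G members sit in the apical or basolateral membrane of the proximal tubule, the segment from which clear cell carcinoma is held to arise, and they are known there for drug and organic anion efflux.

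The libraries held 62304084 wild-type and 50670012 knockout fragments in genes, and with 1 library per line the differences below compare these libraries and have no replicate check. SETD2 had 4908 fragments in wild type and 1404 in the knockout, and its ratio was 0.334 (exact 95% counting interval 0.314 to 0.354). Of any gene, higher and lower mean in what follows that this interval of knockout to wild type, end to end, lay past 1.5-fold in that direction. PAX8, a transcription factor of renal identity, was present in both libraries at 43.7 and 30.9 RPKM. CA9, a carbonic anhydrase often used to mark clear cell carcinoma, was at 1 and 0 fragments. Some markers of other cell types were near absent. PTPRC of leukocytes had 2 and 1 fragments, PECAM1 of endothelium 1 and 0, DCN of fibroblasts 2 and 0, TTR of hepatocytes none, and all 4 red cell genes none. Several others in the leukocyte, endothelium, fibroblast and hepatocyte lists were detected, as given below. Of 11 tested renal markers 2 were higher (CDH6 and AQP1) and 3 lower (MME, GGT1 and VIM, the last at 1734 and 1192 RPKM). The shares over all genes tested were 10.4% higher and 9.17% lower. Relative to the 50 nearest expressed genes on its chromosome the log2 ratio of VIM went from -0.62 to -0.13, and VIM was then not lower. In the other marker lists ALB had 0 and 17 fragments, CD14 7 and 38, CD79A 2 and 12 and TEK 4 and 16, and all 4 were higher. ALB, CD79A and TEK had fewer than 10 reads (a fragment counts as 2 reads) in wild type and reached the 10 reads required over both libraries mainly through the knockout, and relative to neighbours CD79A and TEK were not higher. Lower were SERPINA1 at 35.5 and 18.4 RPKM, ROBO4 at 130 and 46 fragments, LUM at 251 and 79 and COL1A2 at 14 and 0, the last brought past the minimum by wild type alone. CD68 had a ratio of 1.03. CYP3A4 of hepatocytes had 32 and 20 fragments and FGB 13 and 22. PDGFRB of fibroblasts had 57 and 31 and THY1 19 and 34, and none of these was higher or lower.

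Levels are given as the authors' RPKM, which is read density along the gene relative to the library total. By this per-length measure, 23 of 46 members reached 1 RPKM in the wild-type library and 23 in the knockout library. The family was uneven: the 8 most abundant members made up 67.6% of its summed RPKM in the wild-type and 74.9% in the knockout library. In wild type the order was ABCF2 at 34.7 RPKM, ABCA1 at 33.0, ABCF1 at 26.3, ABCE1 at 19.2, ABCA2 at 18.1, ABCC1 at 17.0, ABCD3 at 15.9 and ABCC4 at 15.4. In the knockout library ABCA1 led at 63.1 RPKM, followed by ABCF1 at 30.4, ABCC3 at 27.4, ABCF2 at 23.5 and ABCA2 at 20.3. ABCC3 moved from rank 10 to rank 3, and ABCD3 from rank 7 to rank 10. Over all 46 members the summed RPKM was 266 in wild type and 297 in the knockout, and without ABCA1 it was 233 and 234.

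**Figure D1:**
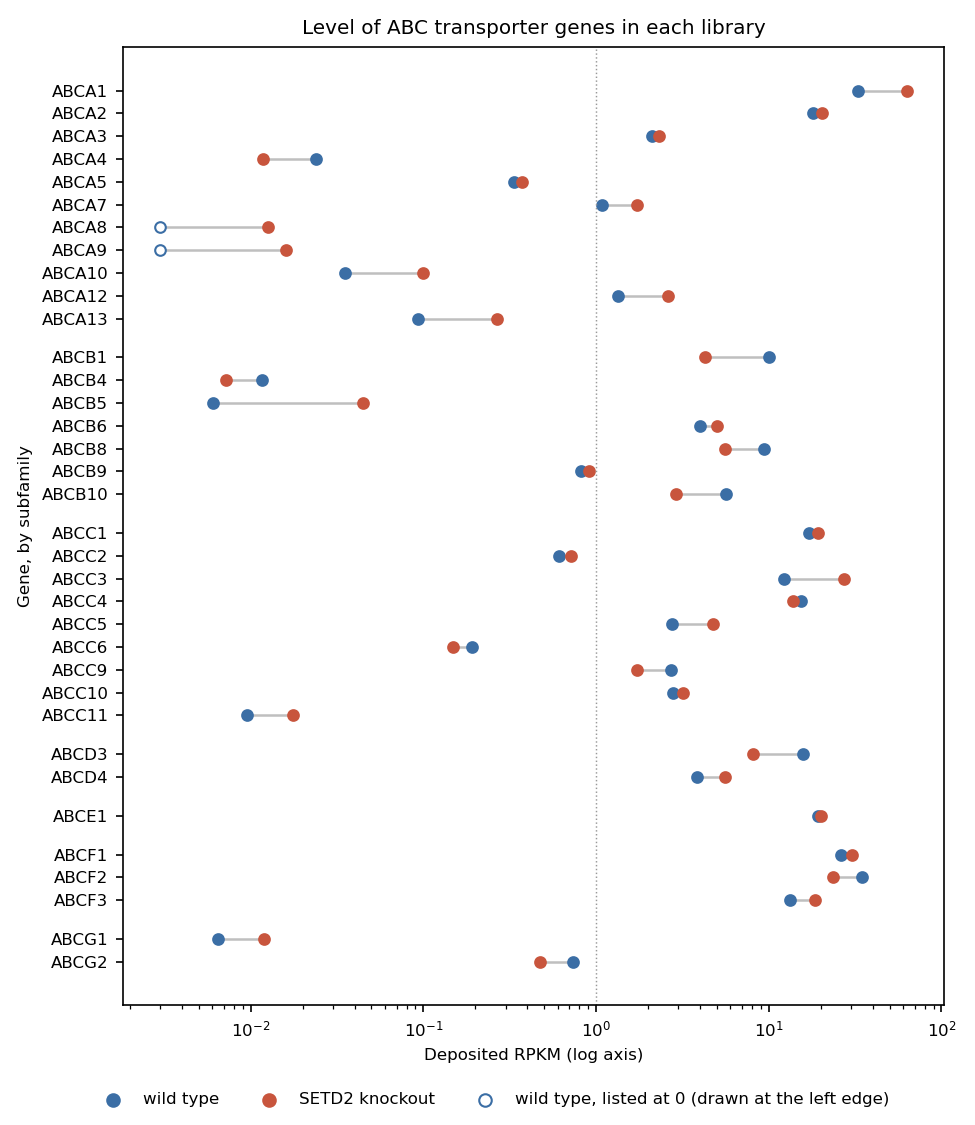
Deposited RPKM on a log axis for 35 of the 37 members with at least 10 reads over both libraries, grouped by subfamily, with 1 point per library and a line joining the libraries. The dotted line marks 1 RPKM, ABCA1 lies farthest right in the knockout library at 63.1 RPKM, and open points stand for ABCA8 and ABCA9, which were listed at 0 in wild type.

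**Figure D2:**
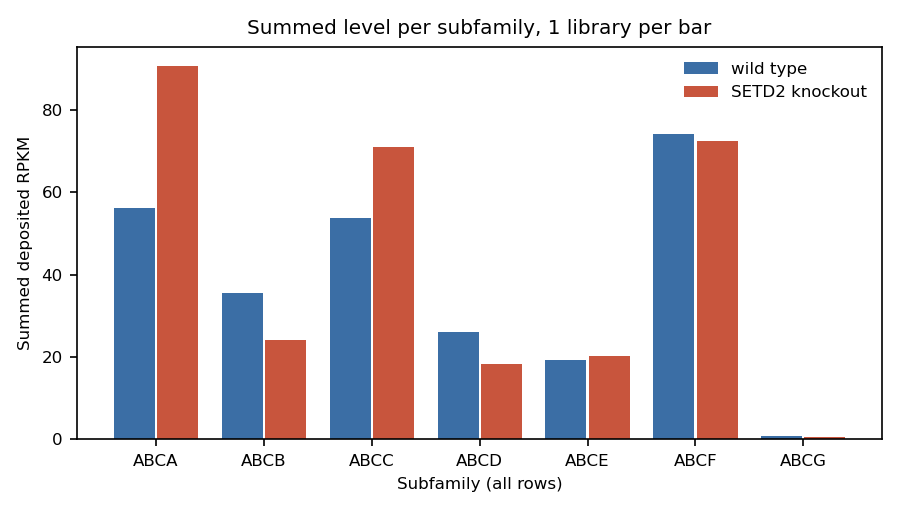
Summed deposited RPKM of every row of each subfamily, 1 bar per library and no error bar because each bar is 1 library. Subfamily A was at 56.2 and 90.8 RPKM, B at 35.6 and 24.1, C at 53.7 and 70.9, and G under 1 in both libraries.

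Ratios are knockout to wild type, computed from fragments after scaling the libraries by trimmed means (TMM), and each carries an exact 95% interval that covers counting error only. RPKM is set against another library total, so a ratio of RPKM values differs slightly from these ratios. Of the 46 members, 37 had the 10 reads over both libraries that were required, and 9 did not. Of the 37, 8 were higher and 6 lower in the knockout library, which is 21.6% and 16.2%. Over all 16894 genes tested, 10.4% were higher and 9.17% lower. With a bound of 2-fold in place of 1.5-fold, 3 members, the rare ABCB5 among them, were higher and 1 lower, against 5.75% and 3.37% of all genes. The median log2 ratio of the 37 was 0.10 against 0.02 for all genes tested. Their median of log2 ratios relative to the 50 nearest expressed genes on the chromosome was 0.09, and by that measure 6 members (16.2%) were higher and 1 (2.70%) lower, against 10.3% and 5.80% of all genes. Among the 23 members with a mean RPKM of at least 1 over both libraries, 4 were higher and 6 lower, and among all 11204 genes at that level 6.24% were higher and 10.5% lower. The other 14 tested members were rarer, and 4 of these were higher and 0 lower. Rare genes in general more often had higher than lower calls, at 18.6% against 6.59%. ABCA8, ABCA9, ABCB5 and ABCC11 had fewer than 10 reads in wild type and reached the minimum mainly through the library in which they were higher, so their direction supports nothing here. ABCA9 and ABCB5 are 2 of the 8 higher members. Without genes that had 10 reads in 1 library and not in the other, 6 of 33 members were higher and 6 lower (18.2% each), against 8.91% and 9.24% of 15448 genes, and the median log2 ratio of the members was 0.08. Of the 10 rarer members then left 2 were higher and 0 lower, against 15.98% and 6.02% of rare genes.

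**Figure D3:**
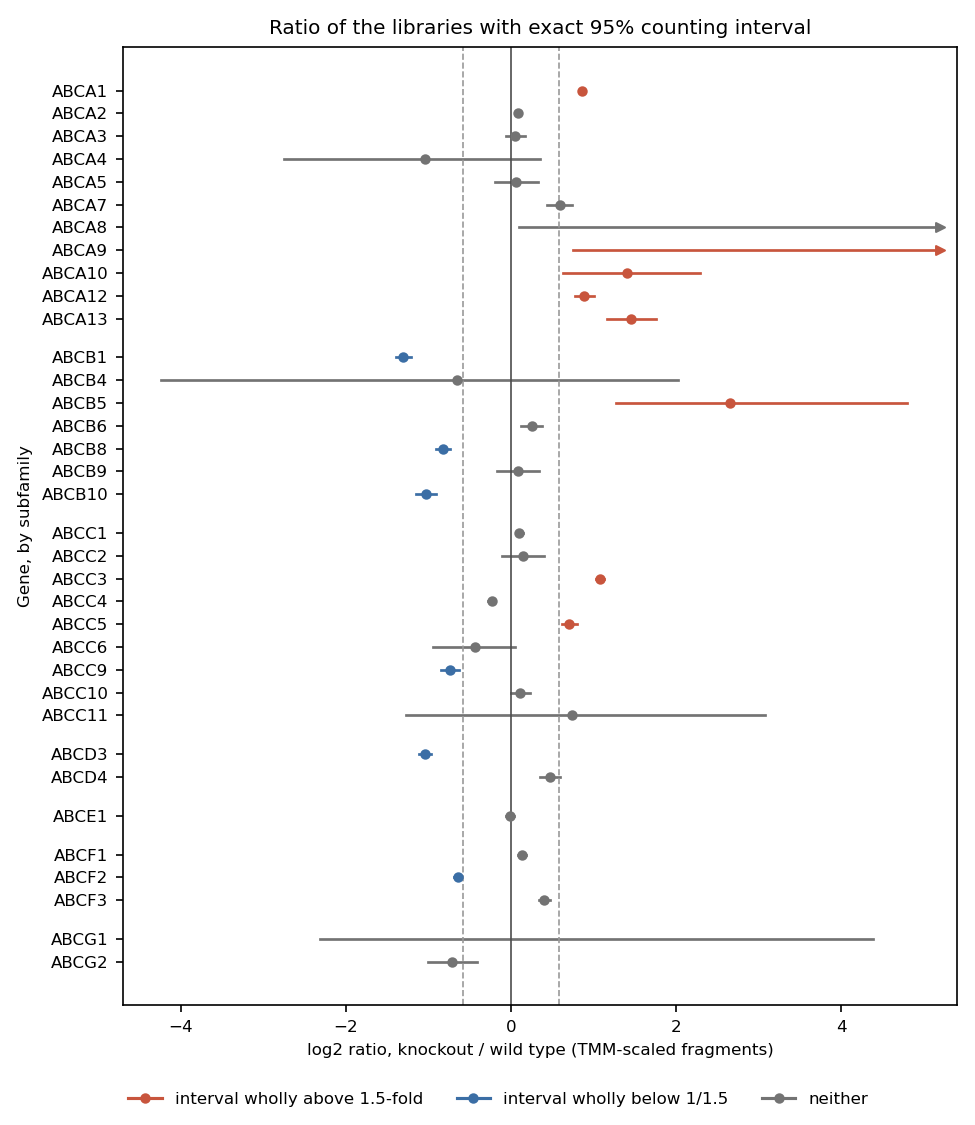
Log2 ratio of knockout to wild type for 35 of the 37 tested members, by subfamily, with the exact 95% counting interval as a line and dashed lines at 1.5-fold. Subfamily A holds 5 of the 8 higher members and subfamily B 3 of the 6 lower ones. ABCA8 and ABCA9, with 0 wild-type fragments, and ABCG1, with 2 and 3, are drawn without a point, and an arrow marks an interval with no upper end.

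Subfamily A, large proteins that mostly move lipids, held the largest difference in level. Of its 12 members 11 were tested, 5 were higher and 0 lower, and the median log2 ratio was 0.85. It was the same with ABCA8 and ABCA9, which had no wild-type fragment, set against a floor of 3 wild-type fragments. Their folds of 1.94 and 2.72 lie above the median, so that step could not change it. The median relative to neighbours was 0.52, and over all genes tested 10.4% were higher and 9.17% lower. Without ABCA8 and ABCA9, 4 of 9 were higher and the median was 0.59. ABCA1 (hg19 chromosome 9, 107543284 to 107690527) passes cholesterol and phospholipid to apolipoprotein A-I and is the gene mutated in Tangier disease. It had 29720 fragments in wild type and 46083 in the knockout, 33.0 and 63.1 RPKM, with a ratio of 1.81 (1.78 to 1.84). The ABCA1 level lay above that of 90.0% of tested genes in wild type and of 95.4% in the knockout. Its 50 nearest expressed genes had a median log2 ratio of 0.33, and relative to them its own log2 ratio was 0.52 in place of 0.85, no longer beyond 1.5-fold.

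The bases before the ABCA1 start are shown because the liver X receptor, an oxysterol sensor that pairs with RXR, is known to act on ABCA1 through a direct repeat there. The window covers the 250 bases before the start in RefSeq (GRCh38.p14, chr9:104928156-104928405, minus strand). Capitals mark, on either strand, the GC box GGGCGG, the CCAAT box, the TATA box TATAAA, the E-box CACGTG (which contains the hypoxia response core ACGTG), the AP-1 site TGANTCA, the antioxidant response core TGACNNNGC and the liver X receptor repeat, which is AGGTNA and NGGTCA with 4 bases between them.
ABCA1: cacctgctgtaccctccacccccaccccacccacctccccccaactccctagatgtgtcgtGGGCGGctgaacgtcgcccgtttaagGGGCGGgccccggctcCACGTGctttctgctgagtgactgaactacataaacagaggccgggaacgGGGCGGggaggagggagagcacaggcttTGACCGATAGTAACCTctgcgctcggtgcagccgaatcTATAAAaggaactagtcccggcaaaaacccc
The window held 3 GC boxes, 1 E-box, 1 repeat and 1 TATA box. The repeat was searched for because of the known ABCA1 element, and its letters admit that element, so the match in ABCA1 was fixed in advance. Of 35116 RefSeq windows of this length 28, or 0.0797%, held it. Among 53 windows of the 35 members that matched the table, none of a member other than ABCA1 did. These figures therefore say nothing about ABCA1 itself. A match is a run of letters and not a measured site.

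ABCA12 (chromosome 2, 215796266 to 216003151), the glucosylceramide carrier of the epidermal barrier, was counted in 1067 and 1691 fragments, 1.34 and 2.62 RPKM, with a ratio of 1.85 (1.71 to 1.998). ABCA13, the longest gene model of the family at 17184 bases, was low in both libraries, with 137 and 321 fragments or 0.0930 and 0.268 RPKM, and had a ratio of 2.73 (2.23 to 3.36). ABCA13 lies on chromosome 7 (48211057 to 48687091) among genes with a median log2 ratio of -0.34, so its own log2 ratio of 1.45 became 1.79 relative to them. ABCA1, ABCA12 and ABCA13 were thus all higher in the knockout library, at levels far apart.

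ABCA5, ABCA6, ABCA8, ABCA9 and ABCA10 form a cluster of related genes on chromosome 17 (66863431 to 67323323). ABCA10 was counted in 19 and 44 fragments, a ratio of 2.70 (1.54 to 4.90). ABCA9 had 0 and 7 fragments, and was 2.72-fold higher when set against a floor of 3 wild-type fragments (interval from 1.68). ABCA8 had 0 and 5 fragments, and was 1.94-fold higher against that floor (interval from 1.07). With a 99% interval neither ABCA9 nor ABCA10 was beyond 1.5-fold. ABCA6 was at 1 and 0 fragments. ABCA5, the cluster's most abundant gene, had 271 and 243 fragments and a ratio of 1.05 (0.876 to 1.25). The spans of ABCA5 and ABCA10 share 381 bases, and reads there could not be assigned by strand.

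The remaining A members described here were neither higher nor lower. ABCA7, a phospholipid carrier linked to Alzheimer disease risk, had 632 and 814 fragments and a ratio of 1.502 (1.35 to 1.67), just short of the rule. ABCA2, a lysosomal sterol-related carrier, had 18.1 and 20.3 RPKM and a ratio of 1.06. ABCA3, the carrier of lung surfactant lipids, had 2.10 and 2.30 RPKM and a ratio of 1.04. ABCA4, the retinal carrier of retinoid conjugates, had 15 and 6 fragments, with an interval of the ratio from 0.148 to 1.27.

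In subfamily B, 9 members included 8 tested, of which 3 were lower and 1 higher, with a median log2 ratio of -0.43. That median was -0.04 when each log2 ratio was taken relative to neighbours. Over all genes tested 10.4% were higher and 9.17% lower. Without ABCB5, the higher member, 3 of 7 were lower and the median was -0.66. That median is the value of ABCB4 alone, which rests on 4 and 2 fragments. ABCB1 (chromosome 7, 87133179 to 87342639), also called P-glycoprotein, is the multidrug efflux pump of the apical membrane. It had 4031 fragments in wild type and 1398 in the knockout, 9.97 and 4.26 RPKM, which is 2.47-fold lower (2.33-fold to 2.63-fold). ABCB1 ranked 11 in the family in wild type and 17 in the knockout, and it was the only lower member whose interval lay wholly beyond 2-fold. Its neighbour ABCB4, the phosphatidylcholine carrier of bile, begins 28159 bases away and had 4 and 2 fragments. The span of ABCB1 overlaps that of RUNDC3B by 84911 bases, and RUNDC3B had 134 and 107 fragments.

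RefSeq gives more than 1 start for ABCB1. The window of the start at chr7:87600885-87601134 (GRCh38.p14, minus strand) is printed with that of ABCB10 (chr1:229558708-229558957, minus strand), the lower member whose chromosomal neighbours were not lower, to set them beside the ABCA1 window. Capitals mark the same letters as above.
ABCB1: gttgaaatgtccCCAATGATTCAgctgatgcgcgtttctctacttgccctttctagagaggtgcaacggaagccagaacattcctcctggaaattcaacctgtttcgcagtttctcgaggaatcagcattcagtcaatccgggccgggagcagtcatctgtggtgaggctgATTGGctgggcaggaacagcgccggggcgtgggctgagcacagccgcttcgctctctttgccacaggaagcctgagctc
ABCB10: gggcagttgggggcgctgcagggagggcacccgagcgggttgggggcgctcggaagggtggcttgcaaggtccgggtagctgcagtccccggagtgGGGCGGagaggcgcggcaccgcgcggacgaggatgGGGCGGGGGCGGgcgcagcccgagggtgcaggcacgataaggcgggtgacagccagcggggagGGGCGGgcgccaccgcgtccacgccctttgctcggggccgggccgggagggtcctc
The ABCB1 window held 2 CCAAT boxes, the first sharing a base with an AP-1 site, and no GC box, while the ABCB10 window held 4 GC boxes and none of the other letters searched. GC boxes were found in 42.6% and CCAAT boxes in 32.0% of all RefSeq windows of this length, and AP-1 letters in 6.57%.

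The mitochondrial B members differed among themselves. ABCB10 (chromosome 1, 229652329 to 229694442), an inner membrane protein that acts in heme synthesis, was counted in 1870 and 784 fragments, 5.65 and 2.92 RPKM, and was 2.04-fold lower (1.88-fold to 2.23-fold). ABCB8 (chromosome 7, 150725510 to 150744869), a mitochondrial protein linked to iron export and potassium flux, had 3756 and 1821 fragments, 9.35 and 5.59 RPKM, and was 1.77-fold lower (1.67-fold to 1.87-fold). ABCB6, a porphyrin-related carrier, had 4.0 and 5.02 RPKM and a ratio of 1.19 (1.09 to 1.295). ABCB10 and ABCB8 were thus lower, while ABCB6 was inside the rule.

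ABCB5, a transporter known from melanoma and limbal stem cells, was near the limit of detection, with 4 and 24 fragments and a ratio of 6.998 (2.404 to 27.8). ABCB9, a lysosomal peptide carrier, had 273 and 248 fragments and a ratio of 1.06. ABCB11, the bile salt export pump of the liver, had 0 and 2 fragments.

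Subfamily C had 12 members, 9 of them tested, of which 2 were higher and 1 lower, with a median log2 ratio of 0.11. The median relative to neighbours was 0.08, and over all genes tested 10.4% were higher and 9.17% lower. ABCC3 (chromosome 17, 48712218 to 48769063), the basolateral multidrug resistance protein MRP3 that exports glucuronide conjugates, was counted in 5531 and 10032 fragments. Its level was 12.2 RPKM in wild type and 27.4 RPKM in the knockout, with a ratio of 2.12 (2.05 to 2.19), wholly beyond 2-fold. Relative to its 50 nearest expressed genes the log2 ratio of ABCC3 was 0.92, against 1.08 without that reference. ABCC5 (chromosome 3, 183637724 to 183735727), a carrier of cyclic nucleotides and folates, had 1670 and 2334 fragments, 2.76 and 4.75 RPKM, and a ratio of 1.63 (1.53 to 1.74). Relative to its neighbours the log2 ratio of ABCC5 was 0.65 against 0.70, and its interval then reached inside 1.5-fold.

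The other multidrug resistance proteins lay closer to 1. ABCC1, the broad exporter of glutathione conjugates and leukotriene C4, was the most abundant C member of the wild-type library, with 17.0 and 19.3 RPKM and a ratio of 1.07 (1.04 to 1.10). ABCC4, which exports cyclic nucleotides, urate and prostaglandins, had 15.4 and 13.8 RPKM and a ratio of 0.848 (0.820 to 0.877). ABCC2, the apical conjugate pump, was less abundant, at 0.610 and 0.714 RPKM, with a ratio of 1.11 (0.929 to 1.32). ABCC10 had 2.77 and 3.17 RPKM and a ratio of 1.08 (0.999 to 1.17).

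ABCC9 (chromosome 12, 21950324 to 22089628) is a sulfonylurea receptor, the regulatory subunit that surrounds potassium channel pores of the Kir6 type. It was counted in 1970 and 1010 fragments, 2.72 and 1.72 RPKM, and was 1.67-fold lower (1.55-fold to 1.81-fold). KCNJ8, which encodes a pore that pairs with ABCC9, had 51 and 15 fragments and a ratio of 0.343 (0.179 to 0.620). KCNJ11, the other pore, had 2 and 2 fragments, and ABCC8, the sulfonylurea receptor of the beta cell, 0 and 1. ABCC9 and KCNJ8 lie in the same lower stretch of chromosome 12, and relative to their neighbours their log2 ratios were 0.08 and -0.70, neither of them lower by the rule. ABCC6, mutated in pseudoxanthoma elasticum, had 92 and 58 fragments and a ratio of 0.735 (0.520 to 1.03). Its count is uncertain because the pseudogenes ABCC6P1 and ABCC6P2, with 33 and 7 and with 28 and 21 fragments, carry near-identical sequence. ABCC11, the earwax gene, had 4 and 6 fragments, ABCC12 had 1 and 0, and ABCC13 none in either library.

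Subfamily D carries fatty acids into peroxisomes, apart from ABCD4, which acts in lysosomal cobalamin release. ABCD3 (chromosome 1, 94883933 to 94984219), which imports branched-chain fatty acids and bile acid precursors, was counted in 5163 and 2148 fragments, 15.9 and 8.13 RPKM, and was 2.06-fold lower (1.96-fold to 2.17-fold). ABCD4 had 3.83 and 5.61 RPKM and a ratio of 1.39 (1.27 to 1.51). ABCD2 had 0 and 4 fragments. Of 17 tested genes of peroxisome biogenesis and fatty acid oxidation, 1 was lower and 0 higher, with a median log2 ratio of 0.10. The shares over all genes tested were 9.17% lower and 10.4% higher. The lower gene was PEX5, the import receptor, at 7.16 and 4.53 RPKM, and its log2 ratio of -0.74 became 0.08 relative to its neighbours on chromosome 12. HSD17B4, the most abundant gene of that list, had a ratio of 1.21.

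ABCE1 and subfamily F held 4 genes, all at 13.2 RPKM or more in both libraries. ABCE1, which splits ribosomes after termination, had 19.2 and 20.1 RPKM and a ratio of 0.992 (0.958 to 1.03). Its log2 ratio of -0.01 turned to 0.07 under total count scaling and 0.06 under upper quartile scaling. ABCF1, an initiation factor partner, had 26.3 and 30.4 RPKM and a ratio of 1.09 (1.06 to 1.13). ABCF3 had 13.2 and 18.5 RPKM and a ratio of 1.32 (1.26 to 1.39). ABCF2 (chromosome 7, 150904923 to 150924317), the leading member of the wild-type library, was counted in 11364 and 6233 fragments and was 1.56-fold lower (1.52-fold to 1.61-fold). ABCF2 and ABCC9 were no longer beyond 1.5-fold under total count or upper quartile scaling. Of 18 genes of ribosome recycling and translation control, 1 was higher and 0 lower, with a median log2 ratio of -0.04. The shares over all genes tested were 10.4% higher and 9.17% lower. The higher gene, IMPACT, an inhibitor of GCN2 activation, had 5.52 and 10.2 RPKM, and EIF1, the most abundant gene of the list, had a ratio of 0.768. IMPACT was not higher relative to its neighbours, at a log2 ratio of 0.65 in place of 0.81.

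Subfamily G was low in both libraries. ABCG2 (chromosome 4, 89011416 to 89080011), the breast cancer resistance protein and a urate exporter of the kidney, was counted in 279 and 146 fragments, 0.734 and 0.474 RPKM. Its ratio was 0.610 (0.496 to 0.748), so the interval reached inside 1.5-fold. ABCG1, the partner of ABCA1 in sterol efflux to lipoproteins, had 2 and 3 fragments. ABCG4, ABCG5 and ABCG8, also sterol carriers, had at most 4 fragments in either library, so no difference was detectable at this depth.

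Most of the lower members lay in stretches whose other genes were lower too. Of 6 members with a mean RPKM of at least 1 whose 50 nearest expressed genes had a median log2 ratio below -0.3, 5 were lower and 0 higher. Of the 17 other members at that level, 1 was lower and 4 were higher. Over all genes of that level the corresponding shares were 40.1% of 1532 genes lower in such neighbourhoods and 5.80% of 9660 genes elsewhere. The shares of higher genes were 1.89% and 6.93%. The 5 lower members were ABCB1, ABCB8 and ABCF2 on chromosome 7, ABCC9 on chromosome 12 and ABCD3 on chromosome 1. Chromosome 7 had a median log2 ratio of -0.54 over 688 expressed genes, chromosome 12 of -0.51 over 724 and chromosome 1 of -0.22 over 1381.

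Relative to their neighbours, the log2 ratios were -0.55 for ABCB1, -0.17 for ABCB8, 0.01 for ABCF2, 0.08 for ABCC9 and -0.28 for ABCD3. None of these was beyond 1.5-fold by that measure. ABCB10 differed: its neighbours on chromosome 1 had a median of 0.15, and its own log2 ratio of -1.03 became -1.19. ABCB8 and ABCF2 lie 160053 bases apart, so that their neighbourhoods overlap. Across the 23 members with a mean RPKM of at least 1, Pearson's r between a member's log2 ratio and its neighbours' median was 0.75 and Spearman's rho 0.54, against 0.35 and 0.43 over 11192 genes. These correlations are across genes of the same libraries, which are not independent replicates. DNA copy number was not analysed here.

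**Figure D4:**
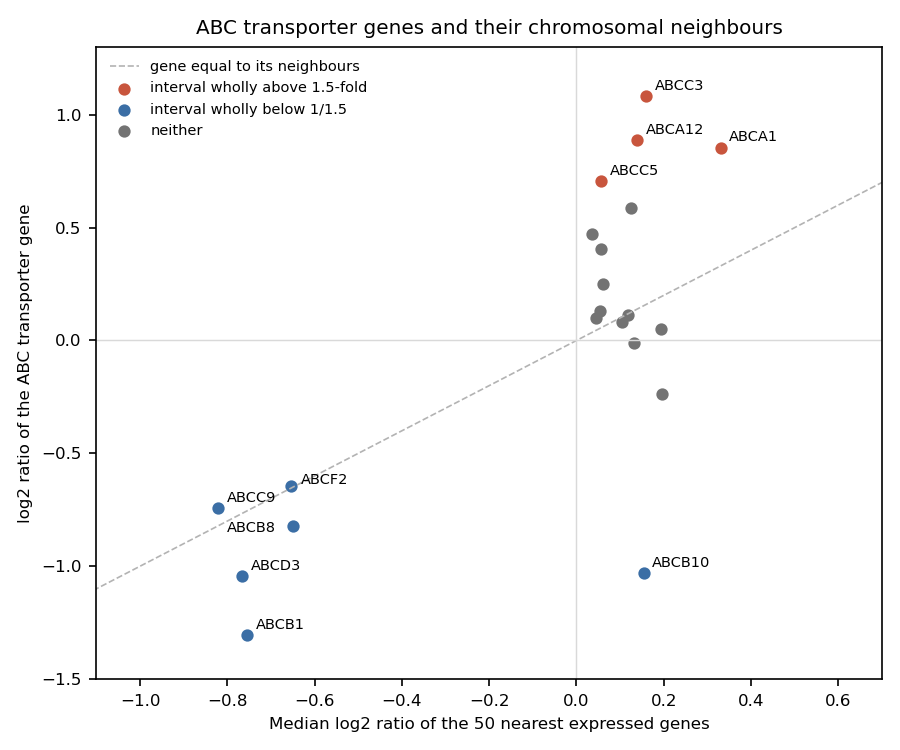
Log2 ratio of 21 of the 23 members with a mean RPKM of at least 1 against the median log2 ratio of its 50 nearest expressed genes on the chromosome. Of the 6 lower members, 5 lie at the lower left, ABCB1 below the dashed line of equality at -0.55 relative to its neighbours and the others nearer to that line. ABCB10 lies below the line with neighbours at 0.15, and the 4 higher members lie above it.

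Other properties that the symbol does not fix were compared as descriptions. Across the same 23 members, Spearman's rho of the log2 ratio was -0.10 with genomic span, 0.25 with gene length and -0.18 with the wild-type level, against -0.03, 0.03 and -0.24 over 11204 genes. Windows before the start that were rich in CpG, with over 50% G and C and an observed to expected CpG ratio above 0.6, were 17 of 23 for members at 1 RPKM or more. They were 11 of 30 for rarer members, and 44.8% of all RefSeq windows, whatever the level of the gene. A share for genes of matched level was not computed. Several members have more than 1 window, so these are counts of windows.

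Genes known to act on ABC transporter transcription moved in both directions. Of 23 tested, 4 were higher and 1 lower, with a median log2 ratio of -0.13. For this and the other gene lists, the shares over all genes tested were 10.4% higher and 9.17% lower. RXRA, the obligate partner of liver X, farnesoid X and pregnane X receptors, had 13.8 and 30.5 RPKM and a ratio of 2.09 (2.03 to 2.15). NR1H4, the farnesoid X receptor, had 17 and 99 fragments and a ratio of 6.79 (4.04 to 12.1). The liver X receptors NR1H3 and NR1H2 had ratios of 1.15 and 0.870, and NR1I2, the pregnane X receptor, 3 and 2 fragments. PPARG had a ratio of 1.85 and FOXO3 of 1.63, and relative to its neighbours FOXO3, at a log2 ratio of 0.54, was not higher. EPAS1 had 21.1 and 12.3 RPKM and was the lower gene, and NFE2L2, the antioxidant regulator, had a ratio of 0.998. YBX1, the most abundant of the list, had 393 and 340 RPKM.

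Of 15 tested cholesterol efflux partners and liver X receptor targets, 0 were higher and 3 lower, with a median log2 ratio of -0.11. SCARB1, the lipoprotein receptor that also mediates sterol efflux, had 63.7 and 32.4 RPKM and a ratio of 0.482 (0.468 to 0.497). PLTP, a phospholipid transfer protein, had 80 and 15 fragments and a ratio of 0.219 (0.117 to 0.383). LPCAT3, a lysophospholipid acyltransferase, had a ratio of 0.531, and CAV1, the most abundant gene, 0.730. Relative to their neighbours the log2 ratio of LPCAT3 went from -0.91 to -0.12, so that it was not lower, and that of CAV1 from -0.45 to 0.02. Of other known liver X receptor targets, MYLIP had a ratio of 1.31, SREBF1 of 0.967 and SMPDL3A of 1.02. APOA1, the acceptor of ABCA1 cholesterol, had 0 and 1 fragments and APOE 11 and 9.

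Of 19 tested solute carriers for drugs and organic ions, which share substrates with these pumps, 4 were higher and 2 lower. Their median log2 ratio was 0.95. Over all genes tested 10.4% were higher and 9.17% lower. Among all tested genes with a mean RPKM under 1 the shares were 18.6% and 6.59%, and the median log2 ratio was 0.40. SLC47A2, an apical organic cation exchanger, was counted in 28 and 512 fragments, a ratio of 21.3 (14.6 to 32.4). SLCO2B1, an organic anion uptake carrier, had 94 and 1033 fragments and a ratio of 12.8 (10.4 to 16.005). SLCO4A1, the most abundant of the list, had 35.0 and 17.0 RPKM and a ratio of 0.460, and SLCO2A1, the prostaglandin carrier, a ratio of 0.417. The proximal tubule anion carriers SLC22A6 and SLC22A8 had no fragment in either library. The counts of this list rest on rare genes in part, as its summed RPKM was 61.9 and 48.3. SLC22A11, among the higher genes, had 3 and 33 fragments and reached the read minimum mainly through the knockout library. The same holds for SLCO1A2, at 1 and 8 fragments, and SLC47A1 had 1 and 4. The median log2 ratio of 0.95 includes these genes, so it supports no direction of the list. A median without them was not computed.

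Conjugating enzymes that supply substrates of the C subfamily had 19 tested genes, 1 of them higher and 3 lower, and a median log2 ratio of -0.36. GCLM, a subunit of the first enzyme of glutathione synthesis, had 22.6 and 10.0 RPKM and a ratio of 0.420, and MGST3 a ratio of 0.501. Neither was lower relative to its neighbours, where the log2 ratio of GCLM went from -1.25 to -0.55 and that of MGST3 from -0.996 to -0.62. SULT1C2 had 34 and 100 fragments and a ratio of 3.43, and GSTP1, the most abundant, a ratio of 0.982. Among 27 genes of mitochondrial iron-sulfur and heme synthesis, the setting of the mitochondrial B members, 2 were higher and 1 lower, with a median log2 ratio of 0.09. ALAD and FDXR had ratios of 1.74 and 1.73, BOLA3 had 0.589, and HSPA9, the most abundant, 1.11. Relative to their neighbours ALAD, at a log2 ratio of 0.47, was not higher and BOLA3, at -0.63, not lower.

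Scaffold and trafficking proteins of apical transporters had 1 higher and 1 lower gene of 10. MYO5B, a motor of apical recycling vesicles, had 0.751 and 2.09 RPKM and a ratio of 2.63 (2.39 to 2.90). PDZK1, a scaffold that binds several apical carriers, had 10.4 and 6.60 RPKM and a ratio of 0.603 (0.560 to 0.650), and MSN, the most abundant, had 1.04. Relative to its neighbours PDZK1 had a log2 ratio of -0.54 and was not lower. Of the ABC proteins with other symbols, the peptide carriers TAP1 and TAP2 of antigen presentation had ratios of 1.01 and 0.781. CFTR, the chloride channel of the C subfamily, had 15 and 0 fragments and passed the read minimum through wild type alone. It was 4.29-fold lower when set against a floor of 3 knockout fragments (exact upper limit of the ratio 0.325).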

How the data were processed

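Per the file headers, the authors deposited for each of 2 libraries a table with the raw count of reads and the RPKM of every gene. Per the submitters' processing notes, hg19, TopHat2 2.0.6, Bowtie and HTSeq were used, and whether counting used strand is not given in the sources used here. Every deposited count was even, so counts were divided by 2 and called fragments. The authors' RPKM values were not rescaled. They rest on a library total of which deposited counts form 72.7% (wild type) and 72.9% (knockout). The Y rows of 23 genes with rows on X and Y were dropped.

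Scaling used TMM, a trimmed mean of log ratios, in edgeR 4.0.16 (R 4.3.3), on the genes that had 10 or more reads in the libraries together. Ratios have exact conditional (Clopper-Pearson) 95% intervals, and log2 ratios used 0.5 added fragments. Intervals and the floor of 3 fragments (0.0494 and 0.0577 CPM) cover counting error only. No p-value was computed, since 1 library per line gives no replicate error. Neighbours were the 50 nearest genes with at least 100 reads. The interval and neighbour steps were tested on simulated data.

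Promoter windows came from RefSeq (GRCh38.p14) by symbol. They were found for 35 members, and no coordinates were mixed with hg19. The symbol rule for the members and the lists were set with earlier results of these data known. The rule itself used no measured value. Named genes were SETD2, the higher and lower members, those within a factor of 1.2 of the rule and the most abundant of each subfamily. Per list they were up to 2 higher and 2 lower genes by the interval bound nearest to 1 and the most abundant. Other members, and the genes added later, were not counted among the named genes when the alternatives were tallied. A few of the genes chosen this way are not reported here. NR1H2, NR1H3, NR1I2, PPARG, FOXO3, NFE2L2, LPCAT3, MYLIP, SREBF1, SMPDL3A, APOA1, APOE, SLC22A6, SLC22A8, SLC22A11, KCNJ11, TAP2, PAX8, CA9, PTPRC, PECAM1, DCN, TTR, CYP3A4, FGB, PDGFRB and THY1 were added after their values were seen. Scaling was also done by total count, by upper quartile and with DESeq2 1.42.0 size factors. Other alternatives were read minimums of 1 and 50, a 99% interval, 1.5-fold without an interval, a 2-fold rule, undivided counts, 2 added fragments, ratios relative to neighbours and ratios of RPKM. Leaving out genes with 10 reads in 1 library and fewer in the other was added after seeing the data.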

Additional observations from a re-analysis of the deposited data

How the results depend on the processing

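The 8 higher and 6 lower ABC transporter genes became 3 and 1 when the whole interval had to lie beyond 2-fold, and those were ABCA13, ABCB5 and ABCC3 and, lower, ABCB1. These were 8.11% and 2.70% of the members, against 5.75% and 3.37% of all genes. Relative to the 50 nearest expressed genes 1 was lower, ABCB10, and ABCC9 at 0.079, ABCF2 at 0.010 and PEX5 at 0.080, called lower without that reference, changed sign. Under the other alternatives the number of higher genes ranged from 6 to 12 and that of lower genes from 4 to 9. None went past 1.5 times the main count, but 12, 9 and 4 lie at that limit. The median log2 ratio stayed within 0.1 of 0.10. The shares of all genes moved with the rule as well. Under total count scaling 21.6% of members were higher and 10.8% lower, against 11.8% and 7.55% of all genes. Without an interval the 12 higher genes added ABCA7, ABCA8, ABCC11 and ABCG1 and the 9 lower genes added ABCA4, ABCB4 and ABCG2. They were 32.4% and 24.3% of members, against 20.7% and 16.5% of all genes. In ratios of RPKM the shares were 32.4% and 21.6% of members, against 23.1% and 14.2% of all genes. For 66 named genes and 10 alternatives, 591 of 660 values kept their call or the lack of one, 62 no longer passed the rule, 4 newly passed it, and 3 called values, those of ABCC9, ABCF2 and PEX5, changed sign. A further 10 values of 6 genes without a call changed sign: ABCE1 and GSTP1 under total count and upper quartile scaling and in ratios of RPKM, and CAV1, CD68, MSN and TAP1 relative to neighbours. Under total count and upper quartile scaling, BOLA3, PDZK1, PEX5 and VIM also no longer passed. No paired analysis was possible because each line has 1 library. Depth limits the rarest members, since 9 of 46 had under 10 reads.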
